A study of Mus musculus with 6 samples.

Results

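The genes described here mark the thalamus and the hypothalamic nuclei that border the paraventricular nucleus of the hypothalamus (PVH), and are read as a record of the territory in each dissected sample. They were chosen by name, as regional markers outside the PVH: 14 are thalamic and 20 belong to the arcuate, ventromedial and suprachiasmatic nuclei, the lateral hypothalamic area or the zona incerta. A row with that gene name was found for 33 of the 34 among the 35148 genes of the deposited table. Kiss1 was not analysed here. All 33 passed the filter on low counts and were tested.

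Tissue labelled as PVH came from mice with loxP-flanked Ruvbl2 alleles (Ruvbl2fl/fl), a genotype shared by every animal of the study. One group of 3 libraries is labelled AAV2-Cre-GFP, an adeno-associated virus of serotype 2 that carries Cre recombinase and GFP and was injected into the PVH. The other group of 3 is labelled AAV2-GFP, the same virus type with GFP alone, and in both groups the tissue was taken 8 weeks after injection. Per the series description, the comparison asks how the chromatin and chaperone ATPase RUVBL2 bears on synaptic plasticity. The labels give no promoter for the virus and no sex or age, and they do not state whether the 3 libraries of a group are 3 animals, so any p-value speaks of library-to-library spread alone. Cells that took up no virus may remain in such a sample. In bulk RNA, fewer cells of a type and less RNA per cell cannot be told apart.

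The thalamus sits above the hypothalamus and relays sensory and motor signals to the cortex. Its excitatory neurons are known for the Wnt effector Tcf7l2 and for regional genes such as the protein kinase Prkcd and the calcium buffer Calb2. The hypothalamic nuclei next to the PVH are told apart by transcription factors and peptides: Tbx3 and Ghrh in the arcuate nucleus, Nr5a1 in the ventromedial nucleus, Six6 and Nms in the suprachiasmatic nucleus, and Hcrt and Pmch in the lateral hypothalamic area. None of these genes is private to its nucleus, and several thalamic ones, Calb2, Zic1, Rora and Adarb1 among them, are also used by hypothalamic neurons.

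Ruvbl2, the gene that Cre should recombine, had 9.53, 9.10 and 9.51 FPKM (fragments scaled by gene length and library total) in AAV2-Cre-GFP libraries 1 to 3, against 9.90, 7.36 and 8.72 FPKM in AAV2-GFP libraries 1 to 3. The groups overlapped, and the exact permutation test gave p = 0.5, where 0.1 is the smallest p that 3 against 3 libraries allow. Since its mean is not lower under the Cre label, the first 3 libraries are called Cre-labelled here and the others GFP-labelled. Total counts were between 41890769 and 54702785 per library. Genes of other organs stood out in 4 libraries. The summed level of 7 kidney genes was 14.5, 449 and 488 CPM (counts scaled to library total) in Cre-labelled 1 to 3 and 41.7, 23.9 and 27.9 CPM in GFP-labelled 1 to 3. For 6 testis genes it was 1.12, 0.155 and 0.329 CPM in Cre-labelled 1 to 3 and 361, 1.67 and 1.11 CPM in GFP-labelled 1 to 3. Skeletal muscle genes stood out in Cre-labelled 3, at 171 CPM against 3.80 to 12.9 CPM in the other libraries. Of 7 pituitary genes the sum was 33.5 CPM in GFP-labelled 2 and 2.68 to 10.5 CPM in the other libraries. Several results are also given without Cre-labelled 2 and 3 and GFP-labelled 1, which leaves Cre-labelled 1 against GFP-labelled 2 and 3, so the pituitary transcripts of GFP-labelled 2 remain in that set.

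Thalamic genes differed more between libraries of the same group than between the groups. Cre-labelled 1 had the lowest level of the Cre-labelled libraries for 14 of the 14 thalamic genes, and GFP-labelled 1 had the highest level of all 6 libraries for 11 of them. Tcf7l2, a transcription factor of the Wnt pathway and a defining gene of the thalamus (chromosome 19, 55741820 to 55933654, plus strand), had 3.13, 10.5 and 6.59 FPKM in Cre-labelled 1 to 3, against 15.7, 10.8 and 6.70 FPKM in GFP-labelled 1 to 3. The highest library thus held 5.01 times the lowest. Ramp3, which modifies calcitonin-family receptors, had 2.79, 8.40 and 6.0 FPKM in Cre-labelled 1 to 3, against 13.7, 6.97 and 3.98 FPKM in GFP-labelled 1 to 3. Gbx2, a homeobox factor of the developing thalamus, had 1.02, 4.65 and 3.34 FPKM in Cre-labelled 1 to 3, against 3.67, 4.63 and 2.42 FPKM in GFP-labelled 1 to 3. For all 3 genes Cre-labelled 1 was the lowest library, while Cre-labelled 2 lay among or above the GFP-labelled libraries. Reads of Gbx2 and of its antisense gene D130058E05Rik, which had 48 to 343 counts per library, cannot be told apart where they overlap unless counting used strand, which is not given in the sources used here.

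**Figure D1:**
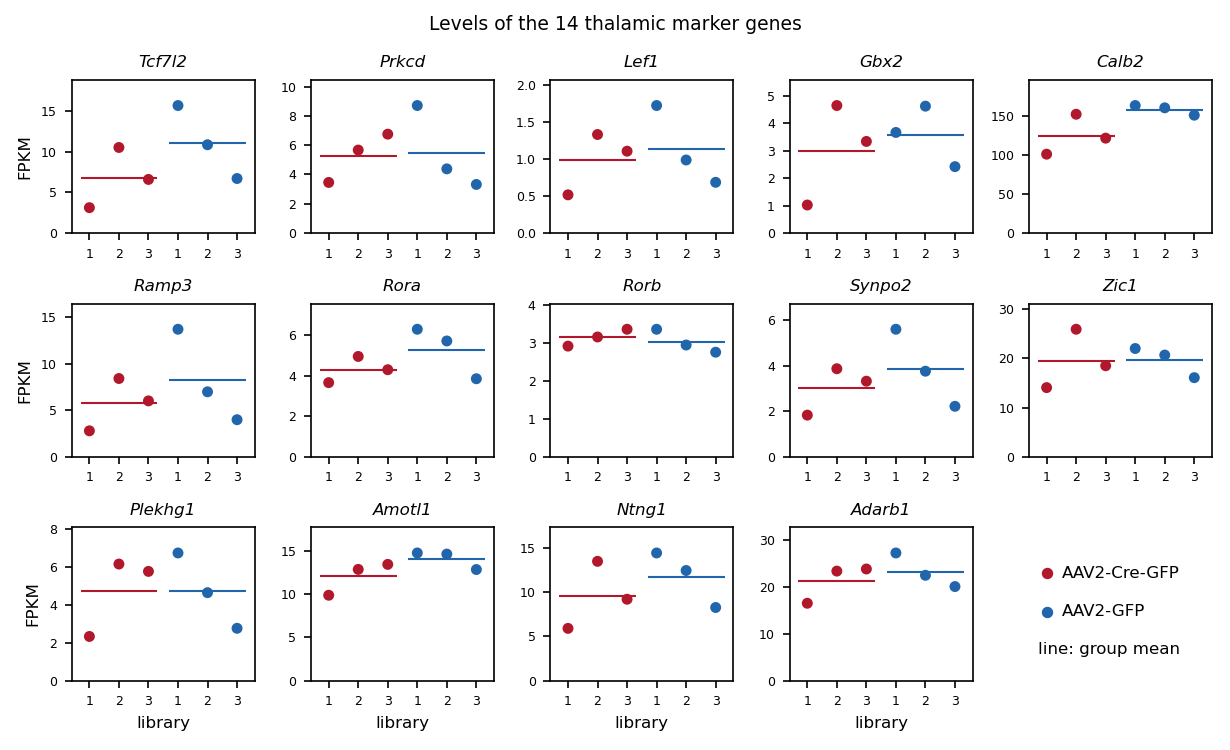
FPKM of the 14 thalamic genes in each library, 1 panel per gene with its own axis from 0; points are libraries 1 to 3 of AAV2-Cre-GFP (red, left) and of AAV2-GFP (blue, right), and lines are group means. Library 1 is the lowest red point in 14 of 14 panels, and AAV2-GFP library 1 is the highest of all points in 11.

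Tcf7l2 and Lef1 encode factors of the same DNA-binding family, and Rora and Rorb encode nuclear receptors of another, so the stretches upstream of the thalamic genes were searched for the letters each family reads. Upstream sequences of 250 bases were taken from RefSeq (GRCm38.p6, 1 entry per gene, 5′ to 3′ on the gene's strand), where 13 of the 14 thalamic genes matched by symbol. Shown are Tcf7l2 at chr19:55741560-55741809 (plus strand) and Ramp3 at chr11:6658283-6658532 (plus strand), the thalamic genes with the widest spread between libraries, and Prkcd at chr14:30626209-30626458 (minus strand). Capitals mark CTTTGA or its reverse complement TCAAAG, the core read by TCF and LEF factors.
Tcf7l2: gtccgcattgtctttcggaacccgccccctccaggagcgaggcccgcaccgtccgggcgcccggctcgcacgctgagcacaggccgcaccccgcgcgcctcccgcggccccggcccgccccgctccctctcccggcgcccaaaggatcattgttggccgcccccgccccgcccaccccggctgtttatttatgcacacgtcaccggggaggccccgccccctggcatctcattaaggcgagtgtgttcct
Ramp3: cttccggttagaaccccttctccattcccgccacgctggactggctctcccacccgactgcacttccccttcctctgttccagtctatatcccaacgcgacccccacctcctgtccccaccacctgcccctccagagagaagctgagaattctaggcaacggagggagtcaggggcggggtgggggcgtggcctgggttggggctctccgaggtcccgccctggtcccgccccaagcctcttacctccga
Prkcd: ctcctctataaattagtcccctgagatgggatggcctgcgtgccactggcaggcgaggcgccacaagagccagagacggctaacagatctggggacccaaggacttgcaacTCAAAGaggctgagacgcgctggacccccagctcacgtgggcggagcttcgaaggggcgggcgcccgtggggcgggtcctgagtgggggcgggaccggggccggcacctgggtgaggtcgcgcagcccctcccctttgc
Prkcd was the 1 thalamic gene of 13 with these letters in the window, and 14.1% of the 27025 promoters in the table hold them on either strand. The half-site AGGTCA or TGACCT of the ROR receptors was in 0 of the 13 and in 13.8% of all promoters. No overlap between the motifs was counted, and a match or its lack describes these windows only.

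Lef1, the second Wnt-pathway factor of the list, had 0.518, 1.33 and 1.11 FPKM in Cre-labelled 1 to 3, against 1.73, 0.990 and 0.688 FPKM in GFP-labelled 1 to 3. Prkcd, a kinase of sensory thalamic nuclei, had 3.46, 5.67 and 6.75 FPKM in Cre-labelled 1 to 3, against 8.70, 4.38 and 3.32 FPKM in GFP-labelled 1 to 3. Both were highest in GFP-labelled 1, and GFP-labelled 3 was the lowest library of its group. Synpo2, an actin-binding protein, had 1.83, 3.86 and 3.32 FPKM in Cre-labelled 1 to 3, against 5.59, 3.75 and 2.22 FPKM in GFP-labelled 1 to 3. Plekhg1 had 2.32, 6.13 and 5.75 FPKM in Cre-labelled 1 to 3, against 6.72, 4.63 and 2.75 FPKM in GFP-labelled 1 to 3. Ntng1, a netrin-G adhesion protein of thalamic axons, had 5.89, 13.5 and 9.18 FPKM in Cre-labelled 1 to 3, against 14.4, 12.4 and 8.25 FPKM in GFP-labelled 1 to 3. In these last 3 genes, too, Cre-labelled 1 was the lowest of all libraries and the groups overlapped.

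The other thalamic genes varied less between libraries. Calb2, which encodes the calcium-binding protein calretinin (chromosome 8, 110137502 to 110168210, minus strand), had 101, 152 and 122 FPKM in Cre-labelled 1 to 3, against 163, 160 and 151 FPKM in GFP-labelled 1 to 3. Only Cre-labelled 2 reached into the narrow range of the GFP-labelled libraries. Zic1, a zinc-finger factor, had 14, 25.9 and 18.5 FPKM in Cre-labelled 1 to 3, against 22, 20.7 and 16.1 FPKM in GFP-labelled 1 to 3, and its highest library was Cre-labelled 2. Zic4 overlaps it on the other strand and had at most 902 counts in a library, against at most 7737 for Zic1. The RNA-editing enzyme gene Adarb1 had 16.5, 23.3 and 23.8 FPKM in Cre-labelled 1 to 3, against 27.2, 22.4 and 20.05 FPKM in GFP-labelled 1 to 3. Amotl1, a junction protein, ran from 9.89 to 13.5 FPKM in the Cre-labelled libraries and from 12.9 to 14.8 FPKM in the GFP-labelled ones. The nuclear receptor genes Rora and Rorb both fell from GFP-labelled 1 to 3 and had Cre-labelled 1 as the lowest of its group, but Rorb varied less. Rora spanned 3.66 to 4.95 FPKM in Cre-labelled and 3.85 to 6.29 FPKM in GFP-labelled libraries, while Rorb spanned 2.91 to 3.36 FPKM and 2.75 to 3.35 FPKM, a ratio of highest to lowest library of 1.22.

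The order of the libraries was shared across the list. Cre-labelled 1 was the lowest of all 6 libraries for 12 of the 14 genes, against 15.8% of all 20865 genes tested. GFP-labelled 1 was the highest of all for 11 of 14, against 19.8% of all genes, and both held for 10 of 14, against 4.93% of all genes. Among the GFP-labelled libraries the level was highest in library 1, next in 2 and lowest in 3 for 13 of 14 genes, against 19.9% of all genes, and Gbx2 was the exception. These genes were measured in the same 6 libraries, so they are not independent of each other. A regional level was taken per library as the mean over the list of log2 CPM (with TMM factors, which scale libraries to a common composition) minus each gene's mean over the 6 libraries. For the thalamic genes it was -0.76, 0.29 and 0.03 in Cre-labelled 1 to 3 and 0.55, 0.19 and -0.29 in GFP-labelled 1 to 3. The range within the Cre-labelled group was 1.05 and within the GFP-labelled group 0.84, against a difference of -0.29 between the group means, -0.15 ± 0.55 in Cre-labelled and 0.15 ± 0.42 in GFP-labelled libraries (SD, n = 3 each).

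**Figure D2:**
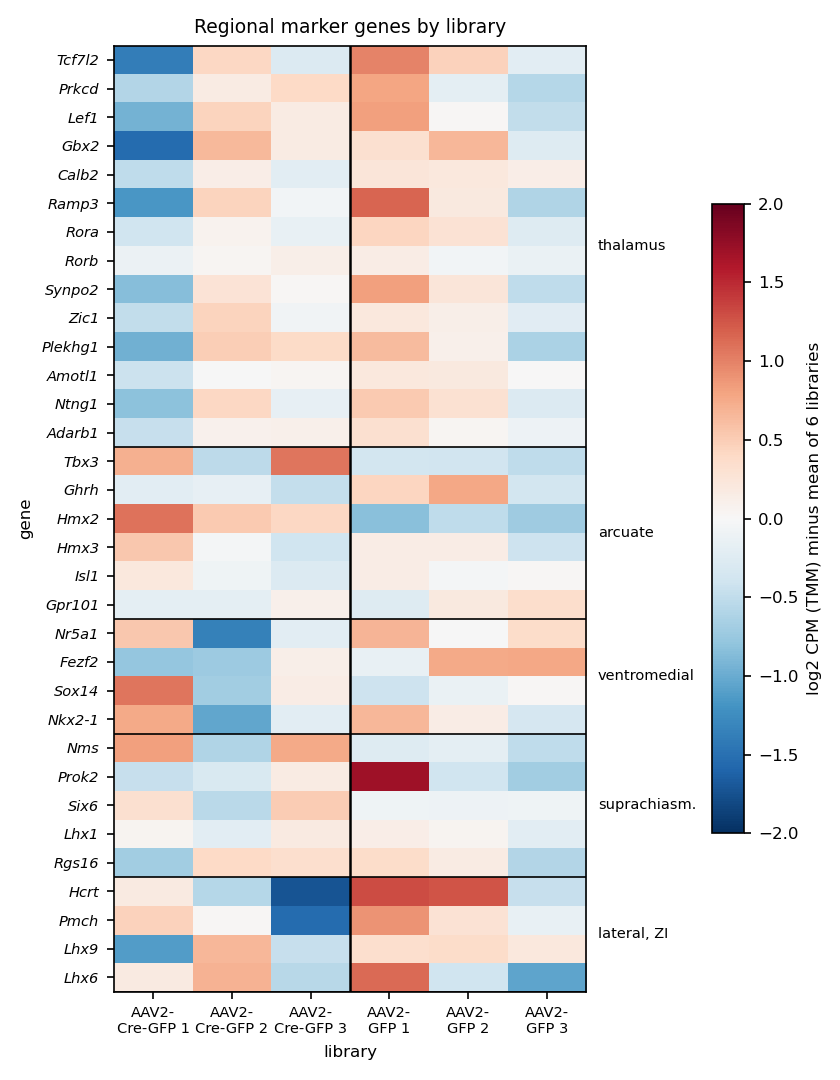
Each square is a gene's log2 CPM (TMM) in 1 library minus its mean over the 6 libraries, with the 3 AAV2-Cre-GFP libraries left of the line and the 3 AAV2-GFP libraries right of it; genes are grouped by region and red is higher. The column of AAV2-Cre-GFP library 1 is blue for all 14 thalamic genes, the column of AAV2-GFP library 1 is red for them, and the arcuate and ventromedial genes follow other orders.

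By mean level, a further 8 thalamic genes that were not among the chosen 14 gave the same order of the 6 libraries. Their regional level was -0.78, 0.29 and -0.08 in Cre-labelled 1 to 3 and 0.50, 0.24 and -0.16 in GFP-labelled 1 to 3. This list, too, was chosen with earlier results of these data known. Singly, Cre-labelled 1 was the lowest of all libraries for 5 of the 8, against 15.8% of all genes. GFP-labelled 1 was the highest for 6, against 19.8%, and both held for 4, against 4.93%. Slc17a6, the vesicular glutamate transporter of thalamic and many hypothalamic neurons, had 19.6, 35.3 and 24.7 FPKM in Cre-labelled 1 to 3, against 36.9, 35.4 and 30.9 FPKM in GFP-labelled 1 to 3. Cbln1, a synapse organizer, had 24.1, 26.3 and 21.7 FPKM in Cre-labelled 1 to 3, against 34.2, 27.4 and 25.7 FPKM in GFP-labelled 1 to 3. Necab1, a calcium-binding protein, ran from 9.52 FPKM in Cre-labelled 1 to 30.8 FPKM in Cre-labelled 2, and from 16.6 to 31.4 FPKM in the GFP-labelled libraries. The wide range of Necab1 within a group thus resembled that of Tcf7l2, while Cbln1 varied little. Between groups all 8 of these log2 differences were below 0, with a median of -0.33, and none passed edgeR's test (smallest adjusted p = 0.165). DESeq2, an alternative test, called 1 of the 8, against 9.06% of all genes.

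Between groups, 13 of the 14 thalamic genes had a log2 difference below 0 (Cre-labelled minus GFP-labelled), against 51% of all genes tested, and 1, Rorb, was above 0, against 49%. None passed the test. The median over the 14 was -0.27, against -0.0058 over all genes. By edgeR's quasi-likelihood test with Benjamini-Hochberg adjustment over all genes, 0 of the 33 regional genes passed an adjusted p under 0.05, where 0.00959% of all genes did. At an unadjusted p under 0.05, 5 of the 33 were counted, against a background of 17.2%. Of these 2 were higher, against 8.11% of all genes, and 3 lower, against 9.11%. Among the thalamic genes that count was 1, Calb2. DESeq2, run as an alternative, called 2 of the 33, Calb2 (adjusted p = 0.0334) and Hcrt (adjusted p = 0.0498), both lower, where it called 9.06% of all genes, and 5.4% lower. The groups overlapped in FPKM for 14 of 14 thalamic genes, whereas 22.9% of all genes tested did not overlap, 8.8% with every Cre-labelled library below and 14.1% with every one above.

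Tcf7l2 averaged 6.74 ± 3.70 FPKM in Cre-labelled and 11.1 ± 4.48 FPKM in GFP-labelled libraries (SD, n = 3 each), and its log2 difference of -0.74 ± 0.44 (SE) had an edgeR adjusted p of 0.436. It was -0.39 without Cre-labelled 1, -0.41 without GFP-labelled 1, -1.21 without Cre-labelled 2, -0.061 without both libraries 1, and -1.53 without Cre-labelled 2 and 3 and GFP-labelled 1. Calb2 averaged 125 ± 25.7 FPKM in Cre-labelled and 158 ± 6.46 FPKM in GFP-labelled libraries (SD, n = 3 each), with a log2 difference of -0.37 ± 0.14 and an edgeR adjusted p of 0.236. It was -0.22 without Cre-labelled 1 and -0.54 without Cre-labelled 2, and -0.68 without Cre-labelled 2 and 3 and GFP-labelled 1. The other 12 thalamic genes had log2 differences between -0.54 for Ramp3 and 0.02 for Rorb. For every one of the 14 the range within the Cre-labelled group exceeded the difference between the group means, as it did for 72.1% of all genes tested.

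The thalamic difference rested on libraries 1 of each group. Without Cre-labelled 1 the median log2 difference was -0.028, with 7 genes above and 7 below 0, and without GFP-labelled 1 it was -0.031. Leaving out Cre-labelled 2 gave -0.47 and leaving out GFP-labelled 3 gave -0.44. With Cre-labelled 1 and GFP-labelled 1 both left out, a setting added after the values were seen, the median was 0.16 and 10 of the 14 genes were above 0. Without the libraries that held kidney or testis transcripts (Cre-labelled 2 and 3 and GFP-labelled 1), Cre-labelled 1 stood alone against GFP-labelled 2 and 3 and was assumed to vary like them. The median was then -0.70, and edgeR called 7 of the 14 thalamic genes lower, against 3.57% of all genes lower and 4.81% in either direction. This comparison is of 1 library with 2. Of 6 genes kept as signs of RNA quality, the most abundant, CT010467, had 17633, 13492 and 7301 CPM in Cre-labelled 1 to 3, against 2219, 2201 and 2072 CPM in GFP-labelled 1 to 3. The mean log2 level of the 6, centred over the libraries, was 1.01, 0.67 and -0.022 in Cre-labelled 1 to 3 and -0.51, -0.66 and -0.50 in GFP-labelled 1 to 3, so the groups did not overlap and Cre-labelled 1 was the highest. All 6 log2 differences were above 0, with a median of 1.03, and none passed edgeR's test (smallest adjusted p = 0.0514). DESeq2 called 4 of the 6, against 9.06% of all genes. In 4 of the 6 every Cre-labelled library was above every GFP-labelled one, against 14.1% of all genes. The part of these 6 genes in the thalamic difference was not tested.

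**Figure D3:**
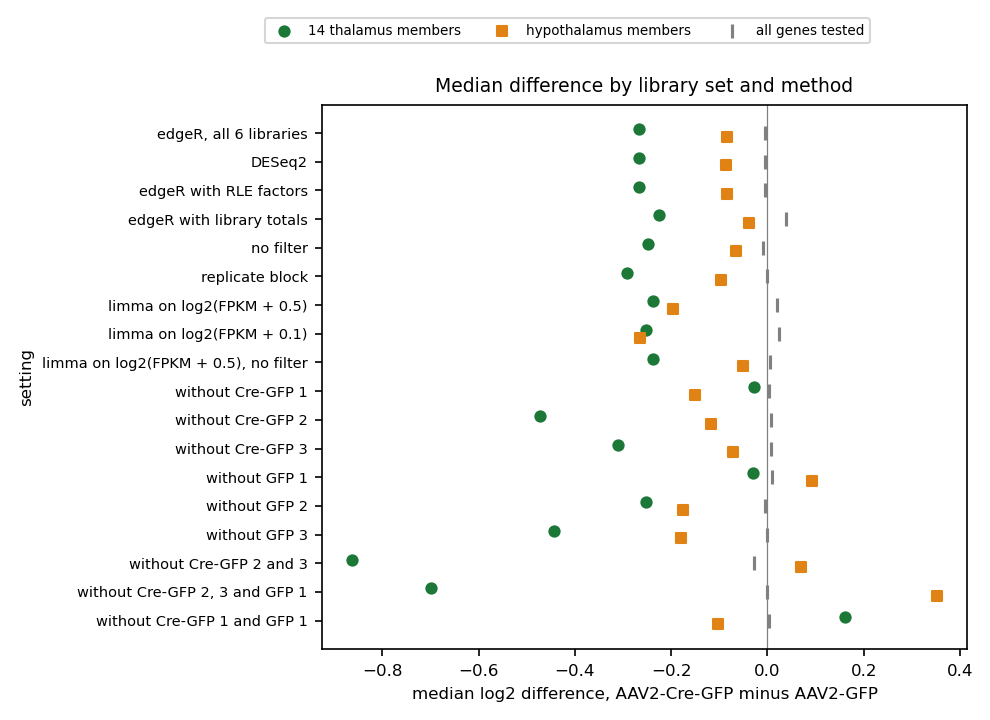
Median log2 difference (AAV2-Cre-GFP minus AAV2-GFP) over the 14 thalamic genes (green circles), the hypothalamic genes tested in that setting (orange squares) and all genes tested (grey bars), for each method and each set of libraries left out. The thalamic median is near -0.27 for the edgeR fit of all 6 libraries, near 0 without library 1 of either group, and 0.16 without both.

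By mean level, arcuate genes took another order, with Cre-labelled 1 at the high end. The regional level of the 6 measured genes was 0.36, -0.08 and 0.08 in Cre-labelled 1 to 3 and -0.12, 0.03 and -0.27 in GFP-labelled 1 to 3. On log2(FPKM + 0.5) Cre-labelled 1 stood at 0.18, and the spread between libraries was 0.31 rather than 0.62. Their summed level was 118 CPM in Cre-labelled 1 and 105 to 138 CPM in the other libraries. In Cre-labelled 1, Hmx2, Tbx3, Hmx3 and Isl1 were above their own means, at 1.08, 0.71, 0.54 and 0.21. Ghrh and Gpr101 were below theirs, at -0.21 and -0.20. Tbx3, a T-box factor of arcuate and tuberal neurons, had 0.906, 0.371 and 1.15 FPKM in Cre-labelled 1 to 3, against 0.404, 0.403 and 0.367 FPKM in GFP-labelled 1 to 3. Cre-labelled 1 and 3 were thus above every GFP-labelled library, and Cre-labelled 2 lay among them. Its log2 difference was 1.00 ± 0.38 (SE), with an edgeR adjusted p of 0.238. Without Cre-labelled 2 and 3 and GFP-labelled 1 it was 1.18, with an adjusted p of 0.0264, where 1.24% of all genes were called higher. The antisense gene Tbx3os1 overlaps Tbx3 and had 67 to 165 counts per library.

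Hmx2, a homeobox factor known from GHRH neurons of the arcuate nucleus (chromosome 7, 131548773 to 131558014, plus strand), was the 1 gene of the 33 whose groups did not overlap, a smaller share than the 22.9% of all genes tested. It had 0.346, 0.220 and 0.206 FPKM in Cre-labelled 1 to 3, against 0.0792, 0.102 and 0.0816 FPKM in GFP-labelled 1 to 3. The log2 difference of 1.48 ± 0.41 (SE) had an edgeR adjusted p of 0.145, and each library held only 13 to 54 counts of it. Without Cre-labelled 2 and 3 and GFP-labelled 1 it was 1.80. Its row lies within the span of Fgfr2 on the other strand, which had 1098 to 1704 counts per library and a log2 difference of 0.10. Hmx3, the neighbouring homeobox gene with a like role, had 1.07, 0.680 and 0.533 FPKM in Cre-labelled 1 to 3, against 0.777, 0.777 and 0.510 FPKM in GFP-labelled 1 to 3, and its groups overlapped. Its row also overlaps Fgfr2 on the other strand.

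Ghrh, the growth hormone-releasing peptide, had 3.71, 3.69 and 3.00 FPKM in Cre-labelled 1 to 3, against 5.61, 7.16 and 3.17 FPKM in GFP-labelled 1 to 3. GFP-labelled 3 lay within the Cre-labelled range, and the log2 difference of -0.65 ± 0.31 (SE) had an edgeR adjusted p of 0.344. It was -0.52 without Cre-labelled 2 and 3 and GFP-labelled 1. Isl1, a LIM homeobox factor of POMC and other neurons, ran from 4.10 to 5.83 FPKM in Cre-labelled and from 4.72 to 5.37 FPKM in GFP-labelled libraries. Gpr101, an orphan receptor of the hypothalamus, ran from 12.1 to 15.1 FPKM in Cre-labelled and from 11.5 to 17.5 FPKM in GFP-labelled libraries. Of the arcuate genes outside the 7 chosen, Pomc, the melanocortin precursor, had 19.1, 2.15 and 11.9 FPKM in Cre-labelled 1 to 3, against 1.23, 3.12 and 2.37 FPKM in GFP-labelled 1 to 3. Pomc and Tbx3 were thus both high in Cre-labelled 1 and 3. Pituitary cells also make Pomc, and the pituitary gene Cga had 2.79, 0 and 1.83 CPM in Cre-labelled 1 to 3, against 0, 0.333 and 0 CPM in GFP-labelled 1 to 3. The pituitary genes Gh and Prl took another order and were highest in GFP-labelled 2, at 13.3 and 16.5 CPM. Gh had 0.955, 0 and 0.439 CPM and Prl 1.84, 0.288 and 0.622 CPM in Cre-labelled 1 to 3. The regional level of the 5 pituitary genes tested was 1.23, -1.77 and 0.51 in Cre-labelled 1 to 3 and -1.87, 1.90 and 0.00 in GFP-labelled 1 to 3, and their part in the Pomc level was not tested. The log2 difference of Pomc was 2.25 ± 0.69, with an edgeR adjusted p of 0.173, and over the 8 further arcuate genes 5 were above 0 and none passed.

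The mean level of the 4 ventromedial genes was lowest in Cre-labelled 2, as Nr5a1, Nkx2-1 and Sox14 each were. Their regional level was 0.40, -0.95 and -0.04 in Cre-labelled 1 to 3 and 0.19, 0.19 and 0.21 in GFP-labelled 1 to 3. A further 5 ventromedial genes were also lowest there but differed less, by 0.28 between the highest and lowest library: their level was 0.02, -0.15 and -0.10 in Cre-labelled 1 to 3 and -0.01, 0.13 and 0.10 in GFP-labelled 1 to 3. Nr5a1, the nuclear receptor that defines the ventromedial nucleus, had 2.72, 0.705 and 1.58 FPKM in Cre-labelled 1 to 3, against 2.87, 1.78 and 2.32 FPKM in GFP-labelled 1 to 3. Nkx2-1, a homeobox factor of the tuberal hypothalamus, had 2.91, 0.799 and 1.44 FPKM in Cre-labelled 1 to 3, against 2.61, 1.82 and 1.29 FPKM in GFP-labelled 1 to 3. Both genes were lowest in Cre-labelled 2 and near or above the highest GFP-labelled library in Cre-labelled 1. Sox14, a factor known from GABA neurons of the thalamus and hypothalamus, had 1.01, 0.273 and 0.517 FPKM in Cre-labelled 1 to 3, against 0.333, 0.404 and 0.458 FPKM in GFP-labelled 1 to 3. Fezf2, a zinc-finger factor, had 0.283, 0.299 and 0.556 FPKM in Cre-labelled 1 to 3, against 0.444, 0.847 and 0.851 FPKM in GFP-labelled 1 to 3. Unlike the other chosen ventromedial genes, it was lowest in Cre-labelled 1, just below Cre-labelled 2. It was the ventromedial gene with the largest difference, -0.94 ± 0.39 on the log2 scale (SE), and its edgeR adjusted p was 0.272. Without Cre-labelled 2 and 3 and GFP-labelled 1 it was -1.58.

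Suprachiasmatic genes took several orders, with a regional level of 0.01, -0.25 and 0.39 in Cre-labelled 1 to 3 and 0.37, -0.10 and -0.42 in GFP-labelled 1 to 3. Nms, the peptide neuromedin S, had 1.16, 0.387 and 1.09 FPKM in Cre-labelled 1 to 3, against 0.493, 0.522 and 0.404 FPKM in GFP-labelled 1 to 3. Six6, a homeobox factor needed to form the nucleus, had 2.68, 1.44 and 3.02 FPKM in Cre-labelled 1 to 3, against 1.95, 1.93 and 1.93 FPKM in GFP-labelled 1 to 3. Both were high in Cre-labelled 1 and 3 and lowest in Cre-labelled 2, and Tbx3 was likewise high in Cre-labelled 1 and 3. Prok2, a secreted output signal of the clock, stood at 0.802 FPKM in GFP-labelled 1 and between 0.124 and 0.264 FPKM in the other 5 libraries, with 15 to 78 counts per library. Its log2 difference of -0.84 ± 0.71 (SE) was therefore set by that library, and without it the sign turned. The antisense gene Gm26748 overlaps Prok2, had 12 to 32 counts per library and was also highest in GFP-labelled 1. Lhx1, a LIM homeobox factor of suprachiasmatic neurons, varied little, from 2.00 to 2.66 FPKM in Cre-labelled and from 1.98 to 2.52 FPKM in GFP-labelled libraries. Rgs16, a regulator of G protein signalling in suprachiasmatic and thalamic neurons, had 9.74, 20.2 and 19.6 FPKM in Cre-labelled 1 to 3, against 19.7, 17.1 and 10.03 FPKM in GFP-labelled 1 to 3. Like most thalamic genes, it was lowest in library 1 of the Cre-labelled and in library 3 of the GFP-labelled group.

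The peptide genes of the lateral hypothalamic area were lowest in Cre-labelled 3, and the regional level of its 4 genes was -0.07, 0.20 and -1.07 in Cre-labelled 1 to 3 and 0.92, 0.38 and -0.36 in GFP-labelled 1 to 3. Hcrt, the arousal peptide hypocretin (chromosome 11, 100761069 to 100762931, minus strand), had 5.58, 3.19 and 1.41 FPKM in Cre-labelled 1 to 3, against 11.8, 11.4 and 3.38 FPKM in GFP-labelled 1 to 3. Its highest library held 8.34 times its lowest, the widest ratio of the 33 genes. Pmch, the precursor of melanin-concentrating hormone, had 542, 389 and 132 FPKM in Cre-labelled 1 to 3, against 707, 465 and 339 FPKM in GFP-labelled 1 to 3. For both peptides GFP-labelled 1 was the highest library and Cre-labelled 3 the lowest, and the groups overlapped. The log2 difference of Hcrt was -1.42 ± 0.58 (SE), with an edgeR adjusted p of 0.264, and that of Pmch was -0.55 ± 0.46, with an adjusted p of 0.590. Without Cre-labelled 2 and 3 and GFP-labelled 1 the differences were -0.45 for Hcrt and 0.38 for Pmch, so that of Pmch turned in sign.

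The LIM homeobox genes of this group took other orders. Lhx9, known from hypocretin neurons and from the thalamus, had 0.510, 1.73 and 0.799 FPKM in Cre-labelled 1 to 3, against 1.36, 1.39 and 1.25 FPKM in GFP-labelled 1 to 3. It was lowest in Cre-labelled 1, as most thalamic genes were. Lhx6, known from GABA neurons of the zona incerta, had 0.522, 0.730 and 0.304 FPKM in Cre-labelled 1 to 3, against 0.987, 0.336 and 0.207 FPKM in GFP-labelled 1 to 3. Its groups had nearly the same mean, 0.519 ± 0.213 FPKM in Cre-labelled and 0.510 ± 0.418 FPKM in GFP-labelled libraries (SD, n = 3 each).

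**Figure D4:**
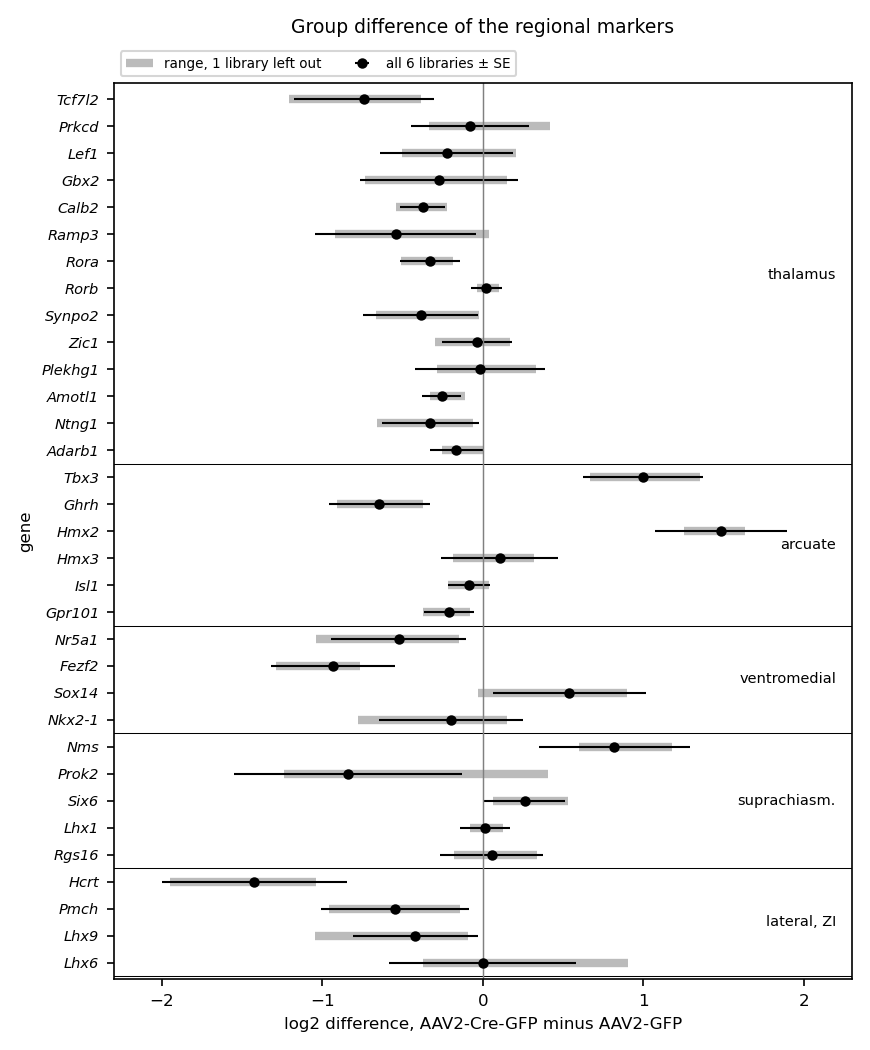
Log2 difference (AAV2-Cre-GFP minus AAV2-GFP) of the 33 regional genes from edgeR; points are the fit of all 6 libraries with its SE, and grey bands run over the 6 fits that each leave out 1 library. Hmx2 and Tbx3 lie furthest to the right at 1.48 and 1.00, Hcrt lies furthest to the left at -1.42, and many bands cross 0.

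Set side by side, the regional levels gave each library its own profile. Cre-labelled 1 was low in thalamic genes and high in the chosen arcuate and ventromedial ones, at -0.76, 0.36 and 0.40, but near the mean in the further ventromedial genes, at 0.02. Of those chosen arcuate and ventromedial genes, Ghrh, Gpr101 and Fezf2 were below their own means in that library, at -0.21, -0.20 and -0.78. Cre-labelled 2 was above the mean in thalamic genes and low in the 4 chosen ventromedial ones, at 0.29 and -0.95, against -0.15 in the further 5. Cre-labelled 3 was near the mean in thalamic genes, low in lateral ones at -1.07 and high in suprachiasmatic ones at 0.39. GFP-labelled 1 was high in thalamic, suprachiasmatic and lateral genes, at 0.55, 0.37 and 0.92. In 6 further suprachiasmatic genes Cre-labelled 3 stood at 0.22, GFP-labelled 2 at 0.19 and GFP-labelled 1 at 0.08. GFP-labelled 2 stayed within 0.38 of the mean in all 5 regional lists, and GFP-labelled 3 was below the mean in all but the ventromedial one. Genes of the PVH itself took another order: the level of 12 PVH genes was -0.41, -0.39 and 0.05 in Cre-labelled 1 to 3 and -0.17, 0.43 and 0.49 in GFP-labelled 1 to 3. The 2 libraries with the least PVH signal, Cre-labelled 1 and 2, thus stood at opposite sides of the thalamic scale.

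**Figure D5:**
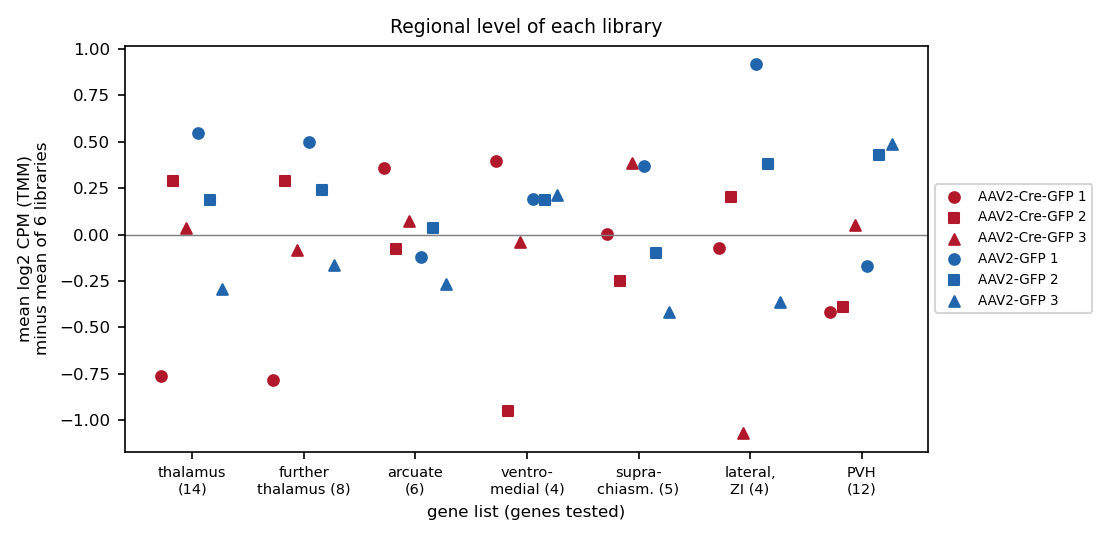
Regional level of each library, as the mean over a list of log2 CPM (TMM) minus each gene's mean over the 6 libraries; the number of genes is in brackets under each list, red is AAV2-Cre-GFP and blue AAV2-GFP, with a symbol per library number. The thalamic lists share an order from -0.76 and -0.78 in AAV2-Cre-GFP library 1 to 0.55 and 0.50 in AAV2-GFP library 1, while AAV2-Cre-GFP library 2 is lowest in the ventromedial list and library 3 in the lateral one.

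Oxt, the PVH peptide oxytocin, showed the PVH order in single values, with 56.2, 137 and 428 FPKM in Cre-labelled 1 to 3, against 184, 568 and 587 FPKM in GFP-labelled 1 to 3. Not every PVH gene did: the lowest library was Cre-labelled 1 for 4 of the 12, Cre-labelled 2 for 6 and GFP-labelled 1 for 2. Over all genes tested these shares were 15.8%, 15.4% and 23.5%. With library totals or on log2(FPKM + 0.5), Cre-labelled 2 rather than Cre-labelled 1 had the lowest PVH level. Over the 12 PVH genes 11 log2 differences were below 0, with a median of -0.46, and none passed edgeR's test (smallest adjusted p = 0.104, for Crh). DESeq2 called 2 of the 12, against 9.06% of all genes. Sim1, another gene of the PVH list, was measured in all 6 libraries, between 1.16 and 2.67 FPKM. Whether the transcripts of these genes came from the PVH alone was not tested. How far the amount of PVH, thalamus or other territory in a sample enters the difference between the groups was not tested.

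Across all 33 genes, the highest and lowest libraries differed by more than 1 on the log2 scale for 23, or 69.7%, against 31.3% of all genes tested. The count was 8 of the 14 thalamic and 15 of the 19 hypothalamic genes. Among genes that averaged 1 FPKM or more the share was 10.9%, while the 14 thalamic genes all had such a mean. The range within at least 1 group exceeded the difference between the group means for 32 of the 33, against 86.5% of all genes. Over the 19 hypothalamic genes 11 log2 differences were below 0, with a median of -0.085. It was 0.093 without GFP-labelled 1, -0.15 without Cre-labelled 1 and -0.18 without either of the other GFP-labelled libraries. By nucleus the medians were 0.0095 over 6 arcuate, -0.36 over 4 ventromedial, 0.054 over 5 suprachiasmatic and -0.48 over 4 lateral genes.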

How the data were processed

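Poly(A) RNA was made into libraries with dUTP strand marking and sequenced as read pairs, per the labels' protocols. Cutadapt, HISAT2, StringTie and build mm9 are named in the submitters' processing notes, without versions. Of 35024 gene identifiers shared with GENCODE M21 (GRCm38), 91.4% have identical positions, so coordinates are read as GRCm38 (29 of the 33 genes are identical). The authors deposited whole-number counts per gene, without normalization. The FPKM values are those the authors deposited beside the counts, and in each gene they are nearly proportional to the counts.

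Counts were tested with edgeR 4.0.16 in R 4.3.3 (quasi-likelihood, TMM factors, filterByExpr with a minimum count of 10), two-sided, without covariates, adjusted over all 20865 genes tested. The common biological coefficient of variation was 27.1%, and every pair of libraries differed by more than sampling noise (chi-square per gene at least 11.4). Standard errors come from the F statistic. For Ruvbl2 an exact two-sided permutation test of FPKM was run. The scripts were tested on simulated data. Members and gene lists were chosen with earlier results of these data known. All 33 genes are named, with Ruvbl2, Oxt, Sim1, Pomc and, for some of the other lists, up to 3 genes of highest mean FPKM. Several lists have no gene named. Crh is given by its adjusted p alone, and Avp, which was also planned, is not described. Genes of overlapping rows were named after their values were seen. Regional levels use log2 CPM with a prior count of 2. The replicate numbers were not taken as pairs. Alternatives were DESeq2 1.42.0, RLE factors, library totals, no filter, a replicate block, limma 3.58.1 on log2(FPKM + 0.5) and log2(FPKM + 0.1) for genes averaging 1 FPKM or more, the former also unfiltered, and each library left out. 3 sets without several libraries were added after seeing the data.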

Additional observations from a re-analysis of the deposited data

How the results depend on the processing

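Scaling did not change the order of the libraries for the thalamic level, whose spread was 1.31 with TMM, 1.25 with library totals and 1.11 on log2(FPKM + 0.5). Of the 33 genes, edgeR called none in the fit of all libraries, with 2 genes called over the whole table. DESeq2 called 2 and 1477. RLE factors called 9 over the whole table, library totals 1, no filter 1, limma on log2(FPKM + 0.1) 15 and limma on log2(FPKM + 0.5) without a filter 1, none of them among the 33. The limma fits of genes averaging 1 FPKM or more tested only 25 of the 33. Leaving out 1 library gave 1 to 296 calls over the whole table, the 296 without Cre-labelled 1, and 0 among the 33. Without Cre-labelled 2 and 3 there were 4 calls, without these and GFP-labelled 1 there were 1059, and without Cre-labelled 1 and GFP-labelled 1 there were 896, and 11 of the 33 were called in the second of these sets only: Adarb1, Amotl1, Calb2, Fezf2, Gbx2, Gpr101, Lhx9, Ntng1, Tcf7l2 and Zic1 lower and Tbx3 higher. The thalamic median was -0.47 to -0.028 with 1 library left out, and -0.86 without Cre-labelled 2 and 3. The hypothalamic median was -0.18 to 0.093 with 1 library left out and 0.35 without Cre-labelled 2 and 3 and GFP-labelled 1. The number of the 33 whose groups did not overlap was 1 to 8 with 1 library left out, against 31.1% to 34.9% of all genes. The labels do not state whether same-numbered libraries were handled as pairs. The correlations of their deviations were -0.0435, 0.0121 and -0.0216, which show no strong shared deviation but cannot settle how the samples were handled. With the replicate number as a block, edgeR called 3 genes over the whole table and none of the 33, and the thalamic median was -0.29.

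The sign of the log2 difference turned in at least 1 setting for 20 of the 33 genes, none past the test in the fit of all libraries. With library totals, the log2 difference was 0.0016 for Zic1, 0.019 for Plekhg1 and 0.035 for Lhx6. With no filter, the log2 difference was 0.013 for Lhx6. With the replicate block, the log2 difference was 0.00068 for Prkcd and 0.22 for Lhx6. By limma on log2(FPKM + 0.5), the log2 difference was 0.015 for Prkcd. By limma on log2(FPKM + 0.1), the log2 difference was 0.019 for Prkcd. By limma without a filter, the log2 difference was 0.015 for Prkcd and 0.068 for Lhx6. Without Cre-labelled 2 and 3, the log2 difference was -0.092 for Rorb, 0.18 for Isl1, 0.19 for Nr5a1, 0.57 for Nkx2-1, -0.72 for Rgs16, 0.066 for Pmch and 0.0050 for Lhx6. Without these and GFP-labelled 1, the log2 difference was -0.021 for Rorb, 0.23 for Isl1, 0.35 for Nr5a1, 0.85 for Nkx2-1, 0.10 for Prok2, -0.53 for Rgs16, 0.38 for Pmch and 0.91 for Lhx6. Without library 1 of both groups, the log2 difference was 0.66 for Prkcd, 0.52 for Lef1, 0.16 for Gbx2, 0.37 for Ramp3, 0.24 for Synpo2, 0.25 for Zic1, 0.66 for Plekhg1, 0.11 for Ntng1, 0.12 for Adarb1, -0.10 for Hmx3, -0.16 for Sox14, 0.54 for Prok2 and 0.91 for Lhx6. Library totals move the median of all genes to 0.039. The cause was not tested. Over the fits without 1 library and the added sets without GFP-labelled 1, the log2 difference ran as follows: Prkcd from -0.33 to 0.66, Lef1 from -0.74 to 0.52, Gbx2 from -1.82 to 0.16, Ramp3 from -1.01 to 0.37, Rorb from -0.036 to 0.17, Synpo2 from -0.75 to 0.24, Zic1 from -0.44 to 0.25, Plekhg1 from -0.72 to 0.66, Ntng1 from -0.86 to 0.11, Adarb1 from -0.42 to 0.12, Hmx3 from -0.19 to 0.68, Isl1 from -0.22 to 0.23, Nr5a1 from -1.04 to 0.35, Sox14 from -0.16 to 1.17, Nkx2-1 from -0.78 to 0.85, Prok2 from -1.24 to 0.54, Lhx1 from -0.080 to 0.13, Rgs16 from -0.53 to 0.53, Pmch from -0.96 to 0.38 and Lhx6 from -0.38 to 0.91. These ranges leave out the set without Cre-labelled 2 and 3 that keeps GFP-labelled 1. There the thalamic genes just listed went lower still: Prkcd -0.70, Lef1 -1.16, Gbx2 -1.83, Ramp3 -1.59, Rorb -0.092, Synpo2 -1.11, Zic1 -0.52, Plekhg1 -1.06, Ntng1 -1.03 and Adarb1 -0.54. Sox14 went higher there, at 1.30. With 1 library left out the genes that kept their sign in every setting that tested them ran as follows: Tcf7l2 from -1.21 to -0.39, Calb2 from -0.54 to -0.22, Rora from -0.51 to -0.19, Amotl1 from -0.33 to -0.11, Tbx3 from 0.67 to 1.35, Ghrh from -0.91 to -0.37, Hmx2 from 1.25 to 1.63, Gpr101 from -0.37 to -0.078, Fezf2 from -1.29 to -0.76, Nms from 0.60 to 1.18, Six6 from 0.061 to 0.53, Hcrt from -1.95 to -1.04 and Lhx9 from -1.04 to -0.090. Low genes such as Hmx2, Prok2 and Nms rest on few counts, and 3 libraries a group limit every comparison.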

Other observations

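Other lists of regions and cell types were measured in the same libraries. Over 9 choroid plexus genes 7 log2 differences were above 0, with a median of 0.79, and none passed edgeR's test. DESeq2 called 2 of the 9, against 9.06% of all genes. The highest mean levels of this list were in Cre-labelled 2 and 3: Aqp1, a water channel, had 0.459, 6.52 and 7.57 FPKM in Cre-labelled 1 to 3, against 0.602, 1.05 and 0.569 FPKM in GFP-labelled 1 to 3. Ttr, the transthyretin gene that choroid plexus makes in great amounts, was at most 6.05 FPKM in any library and had no count in GFP-labelled 1. Kidney, which also expresses Aqp1, was high in the same Cre-labelled libraries. Of the 6 ependymal and tanycyte genes 3 did not overlap between the groups, each higher, where 14.1% of all genes tested were: Foxj1, the master regulator of motile cilia, had 20.2, 16.1 and 18.8 FPKM in Cre-labelled 1 to 3, against 11.9, 14 and 11.5 FPKM in GFP-labelled 1 to 3, with a log2 difference of 0.53 ± 0.10 (SE) and an edgeR adjusted p of 0.0855. All 6 log2 differences were above 0, with a median of 0.52, and DESeq2 called 3 of the 6, against 9.06% of all genes.

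Habenular genes, from the region that borders the thalamus, were all below 0 (5 tested, median -0.39), and the 7 cortical and hippocampal genes tested ordered the Cre-labelled libraries as the thalamic genes did, at -0.47, 0.34 and 0.08 in Cre-labelled 1 to 3 and 0.30, 0.07 and -0.32 in GFP-labelled 1 to 3. Pituitary hormone genes were high in GFP-labelled 2, where 7 genes summed to 33.5 CPM, against 2.68 to 10.5 CPM in the other libraries. Mammillary, striatal and preoptic lists varied by at most 0.21 between libraries. The 8 pan-neuronal genes had a median log2 difference of -0.18, all below 0, the 8 astrocyte genes one of 0.091, the 8 oligodendrocyte genes 0.0058, the 8 microglial genes -0.042 and the 6 endothelial genes 0.065. The mean level of the pan-neuronal genes was -0.21, -0.01 and -0.07 in Cre-labelled 1 to 3 and 0.06, 0.12 and 0.11 in GFP-labelled 1 to 3. For the astrocyte genes it was 0.12, 0.03 and 0.03 in Cre-labelled 1 to 3 and -0.07, -0.03 and -0.09 in GFP-labelled 1 to 3. Cre-labelled 1, the lowest library in thalamic genes, was thus also lowest in pan-neuronal and highest in astrocyte genes. Of the RNA-quality genes, the mitochondrial ribosomal RNA mt-Rnr2 was at 3151, 2560 and 2261 CPM in Cre-labelled 1 to 3, against 2124, 1843 and 2021 CPM in GFP-labelled 1 to 3. The part of these in the results was not tested.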
